A study of Drosophila melanogaster with 17 samples.

Results

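MiR-966-5p, miR-2279-5p, miR-994-5p and miR-263a-5p are 4 scarce guide strands of Drosophila melanogaster Schneider 2 (S2) cells, an embryonic line with macrophage-like properties. The files list them as mir-966-5p, mir-2279-5p, mir-994-5p and mir-263a-5p. They were chosen by name from the 324 miRNA arms listed in the position tables, as less abundant guides whose reads rose relative to the average miRNA arm after oxidation. The oxidised against unoxidised values below therefore describe that choice and are given with no test. A guide is here the arm of a hairpin with more reads in the unoxidised libraries, and 48 guides were among the 80 arms that could be compared between the groups.

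The wild-type cells took up 4-thiouridine (s4U), a label for new RNA given at 500 µM, for 0.25, 0.5, 1, 3, 6, 12 or 24 h, and a 0 h culture received none. Iodoacetamide (IAA) was used to alkylate s4U in the RNA, which turns it into a T>C mismatch when the RNA is reverse transcribed. Each RNA was split and sequenced as it was (unoxidised, 8 libraries) or after treatment with NaIO4 (oxidised, 8 libraries), and 1 untreated library had neither s4U nor IAA. The 8 libraries of a group were 8 labelling times and not replicates of 1 time, so tests over libraries measure the spread between them, part of which may be technical. In these bulk libraries fewer cells that make a miRNA and less of it per cell cannot be told apart.

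Drosha and Dicer-1 cut a miRNA hairpin into a short duplex, of which 1 strand, the guide, stays in an Argonaute protein while the other is mostly lost. In flies most guides enter Argonaute1, whereas duplexes with a well-paired centre tend towards Argonaute2, the protein of RNA interference, which also favours strands that start with C. The methyltransferase Hen1 then places a 2′-O-methyl group on the 3′ end of strands in Argonaute2. NaIO4 attacks 3′ ends that lack this group and keeps them out of the library.

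The sequences are shown for their seeds, the stretch that pairs with target mRNAs, and for the U positions at which label was read. They are the bases of the deposited hairpins in DNA letters, 5′ to 3′, at the most frequent read length, with the seed (bases 2 to 8) in capitals.
miR-966-5p: tGTGGGTTgtgggctgtgtgg
miR-994-5p: cTAAGGAAatagtagccgtgat
miR-263a-5p: aATGGCACtggaagaattcacggg

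MiR-966-5p (21 nt) holds 12 G, 8 T, 1 C and no A. MiR-994-5p (22 nt) has 5 T and miR-263a-5p (24 nt) has 4, whereas miR-2279-5p (22 nt, named here without its sequence) has 10. Only miR-2279-5p shared its seed with another listed arm, miR-1008-5p, a strand of a mirtron hairpin. None of the 4 shared a stretch of 18 bases with another listed arm, so no listed arm is a copy of them. Other places in the genome were not searched.

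The coordinates are those of the BDGP6 annotation, which uses the dm6 build. The gene mir-966 lies on chromosome 2L from 6045627 to 6045713 on the minus strand, in an intron of Pfas, which encodes an enzyme of purine synthesis. The gene mir-2279 lies on chromosome 2R from 2552170 to 2552282 on the minus strand, in an intron of MFS17, a transporter gene. The gene mir-994 lies on chromosome 3R from 10408137 to 10408227 on the plus strand, in no other gene and 75 bases from mir-318. The gene of miR-263a, named mir-bft after its bereft phenotype, lies on chromosome 2L from 11953410 to 11953503 on the minus strand, in an exon of lncRNA:CR43314. MiR-263a is known in flies for protecting sensory bristle cells from apoptosis, and the exonuclease Nibbler is known to trim its 3′ end.

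In the predicted fold of the hairpin all 4 guides were paired at nucleotides 9 and 10, as were 28 of the 44 other guides. MiR-994-5p starts with C and miR-263a-5p with A, and the other two start with U, as do 35 of the 44 other guides. These counts describe single sequences and were not tested.

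The unoxidised libraries, the untreated one included, held 19041816 to 28351872 small RNA reads, of which 51.3% to 57.3% were miRNA reads. The oxidised libraries held 19074278 to 42511487, with 7.27% to 13.2% on miRNAs, and the 0 h library was the deepest and had the highest share. Levels are in RPM, in which the reads of an arm are divided by the library's total of small RNA reads. Of the arms named as S2 markers 7 of 7 were listed, with a summed level of 293558 to 332434 RPM in the unoxidised libraries. In the same libraries both muscle arms summed to at most 1.31 RPM and the neuron arm (miR-124-3p) reached at most 0.309 RPM. The 3 arms of ecdysone-exposed tissues summed to at most 3.49 RPM there. The 2 ovary arms reached 23.5 to 41.7 RPM, nearly all of it miR-318-3p, the neighbour of miR-994. After oxidation the S2 arms summed to 8203 to 39356 RPM and the ovary arms to 0.690 to 2.22 RPM. The 1 listed muscle arm then reached at most 2.73 RPM and the 2 listed ecdysone arms at most 12.65 RPM, and the neuron arm was not listed.

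Levels of the 4 guides were low before oxidation. Their mean levels ranked 43rd, 44th, 46th and 48th among the 48 guides, whose median was 3044 RPM. Among all 78 guides of the unoxidised table, which include those not compared after oxidation, miR-263a-5p ranked 46th, miR-2279-5p 48th, miR-966-5p 57th and miR-994-5p 76th. MiR-966-5p stood at 26.9, 28.4, 23.4, 24.7, 26.1, 17.1, 35.3 and 20.9 RPM at 0, 0.25, 0.5, 1, 3, 6, 12 and 24 h without oxidation. After oxidation it stood at 765, 103, 75.2, 84.5, 63.5, 68.6, 73.7 and 69.5 RPM at the same times. Every oxidised library lay above every unoxidised one and above the untreated library (37.8 RPM), and the 0 h library lay far above the other 7. The mean was 25.3 ± 5.40 RPM before and 163 ± 244 RPM after oxidation (SD, n = 8), and 76.8 ± 13.1 RPM (n = 7) without the oxidised 0 h library. Of the 80 arms 5% had every oxidised library above every unoxidised library, and miR-966-5p was the one of the 4 guides that did.

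MiR-2279-5p stood at 63.4, 82.0, 74.3, 71.3, 75.0, 81.5, 76.9 and 75.3 RPM at 0 to 24 h without oxidation. After oxidation it stood at 33.2, 141, 134, 114, 171, 154, 109 and 119 RPM. The 7 labelled oxidised libraries lay above all unoxidised ones, while the oxidised 0 h library lay below all of them. The untreated library had 62.2 RPM. The mean was 74.95 ± 5.91 RPM before and 122 ± 41.5 RPM after oxidation (SD, n = 8), and 134 ± 22.7 RPM (n = 7) without the oxidised 0 h library.

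MiR-994-5p, the scarcest of the 48 guides, stood at 7.44, 6.39, 5.67, 5.32, 6.85, 5.57, 6.44 and 3.25 RPM at 0 to 24 h without oxidation. After oxidation it stood at 43.1, 10.1, 5.63, 4.72, 7.06, 7.87, 4.30 and 5.48 RPM. Apart from the oxidised 0 h library, the range of the oxidised libraries overlapped that of the unoxidised ones. The untreated library had 8.43 RPM. The mean was 5.87 ± 1.27 RPM before and 11.0 ± 13.1 RPM after oxidation (SD, n = 8), and 6.46 ± 2.05 RPM (n = 7) without the oxidised 0 h library.

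MiR-263a-5p, the most abundant of the 4, stood at 104, 105, 110.1, 94.2, 93.5, 80.6, 108 and 101 RPM at 0 to 24 h without oxidation. After oxidation it stood at 197, 111, 124, 95.2, 89.1, 98.0, 84.0 and 80.1 RPM. The groups overlapped, and only the oxidised 0 h library and the oxidised libraries at 0.25 and 0.5 h lay above all unoxidised ones. The untreated library had 116 RPM. The mean was 99.4 ± 9.64 RPM before and 109.7 ± 37.9 RPM after oxidation (SD, n = 8), and 97.2 ± 15.4 RPM (n = 7) without the oxidised 0 h library.

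**Figure D1:**
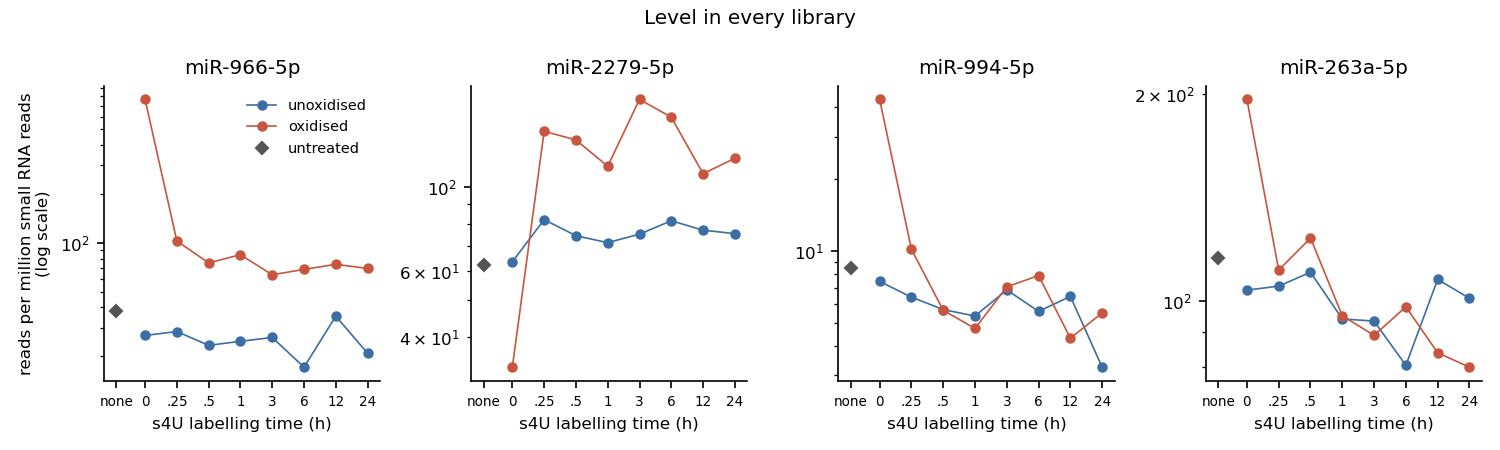
Level in RPM (log axis, scaled for each guide) against s4U labelling time in h for each of the 4 guides. Each point is 1 library, blue for unoxidised, red for oxidised and a grey diamond for the untreated library. The oxidised 0 h library lies above the other 7 oxidised libraries in miR-966-5p (765 RPM), miR-994-5p (43.1 RPM) and miR-263a-5p (197 RPM) and below them in miR-2279-5p (33.2 RPM).

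The oxidised 0 h library lay outside the range of the other 7 oxidised libraries for all 4 guides, as it did for 76.2% of the 80 arms. Its level was 10.4 times the median of the other 7 for miR-966-5p, the highest ratio of the 80 arms, and 7.65 times for miR-994-5p, the 3rd highest. The ratio was 2.07 for miR-263a-5p and 0.249 for miR-2279-5p, against 0.679 for the median arm. The part of that library's depth and miRNA share in these values was not tested.

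The other strands of the hairpins were scarcer still. Without oxidation the level of the guide was 9.34 times that of the other arm for miR-966, 6.83 times for miR-2279, 8.19 times for miR-994 and 60.6 times for miR-263a (ratios of means over 8 libraries). MiR-966-3p stood at 2.10 to 3.37 RPM and miR-2279-3p at 9.65 to 12.9 RPM, and the oxidised table lists neither. MiR-994-3p went from a mean of 0.716 ± 0.224 to 0.518 ± 0.200 RPM and miR-263a-3p from 1.64 ± 0.691 to 0.240 ± 0.166 RPM (SD, n = 8). The ranges of miR-994-3p overlapped, whereas every oxidised library of miR-263a-3p lay below every unoxidised one, at 1 to 12 reads. Of the 80 compared arms 63.8% had every oxidised library below every unoxidised one. After oxidation the ratio of guide to other arm was 21.3 for miR-994 and 456 for miR-263a, or 10.9 and 416 as ratios of medians.

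MiR-318-3p, whose hairpin neighbours that of miR-994, was lower after oxidation, as most arms were. It stood at 31.9 ± 6.86 RPM without oxidation and at 0.586 ± 0.336 RPM after it (SD, n = 8), with every oxidised library below every unoxidised one. MiR-994-5p was thus the scarcer of the 2 before oxidation and the more abundant after it.

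Relative to the average arm, the 4 guides were higher in 8 of 8 same-time pairs of libraries, as were miR-252-5p and miR-33-5p. This scale (TMM, which sets the middle of all arms to no change) differs from RPM because most miRNAs lost reads on oxidation. The log2 fold change of oxidised against unoxidised was 4.13 ± 0.48 for miR-966-5p, 2.83 ± 0.15 for miR-2279-5p, 2.65 ± 0.40 for miR-994-5p and 2.32 ± 0.23 for miR-263a-5p (SE from the edgeR fit, 8 pairs). These were the 1st, 2nd, 4th and 5th highest of the 48 guides, whose median was −1.49. Of the 80 arms 43.8% were higher after oxidation and of the 48 guides 25% (edgeR quasi-likelihood test, Benjamini-Hochberg adjusted p under 0.05). The 4 guides are among them, which follows from how they were chosen.

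The order of the 4 guides was the same on another scale, but the size was not. Scaled to all small RNA reads the log2 fold changes were 1.95, 0.59, 0.44 and 0.09 for miR-966-5p, miR-2279-5p, miR-994-5p and miR-263a-5p, and the median guide moved to −3.74. On that scale 10% of the 80 arms were higher. Without the 0 h pair the values relative to the average arm were 3.62 ± 0.14, 2.79 ± 0.12, 2.16 ± 0.16 and 1.97 ± 0.11 (SE, 7 pairs) in the same order. The spread between pairs was widest for miR-966-5p, from 3.35 to 7.80, and narrowest for miR-2279-5p, from 2.04 to 3.26.

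The guides next to them in this order were far more abundant. MiR-252-5p (6342 RPM) was 3rd with 2.67 ± 0.22, and miR-33-5p (10116 RPM) was 6th with 1.88 ± 0.22. Bantam-3p, the most abundant guide with 147021 RPM and a repressor of apoptosis genes, stood at −3.48 ± 0.17. The other 2 guides with fewer than 100 RPM, named here after their values were seen, were miR-954-5p (17.6 RPM), the 7th with 1.86 ± 0.31, and miR-4940-5p (51.6 RPM), the 11th with 1.22 ± 0.63. Of 33 guides below 100 RPM in the unoxidised table only these 6 could be compared, because a guide also had to be listed in the oxidised table. Scarce guides that fell below that listing could not enter, so nothing is read from the sign of these 6.

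**Figure D2:**
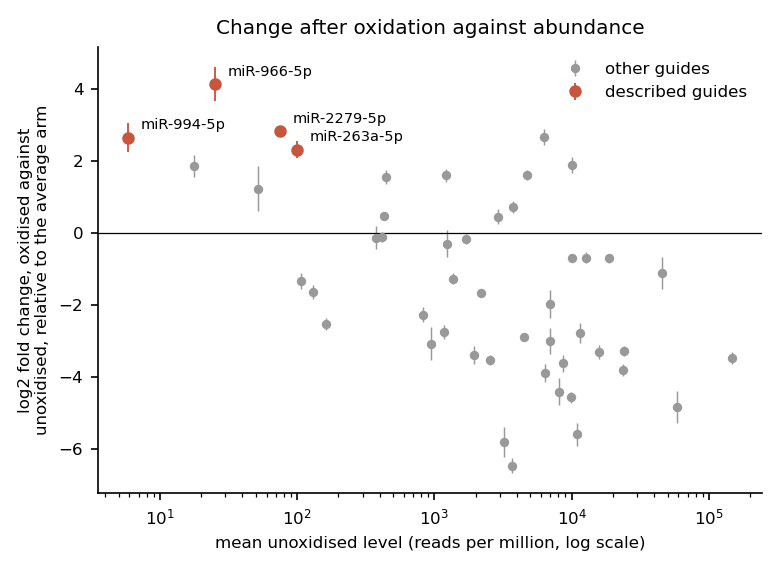
Log2 fold change of oxidised against unoxidised, relative to the average arm (bars are SE from the edgeR fit to 8 pairs), against the mean unoxidised level in RPM (log axis) for 48 guides. The 4 described guides (red) lie between 2.32 and 4.13 at the left of the plot, while bantam-3p, the rightmost point, lies at −3.48. Scarce guides are plotted only where the oxidised table lists them, which leaves out 27 of 33 below 100 RPM.

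Which arms followed the same course was asked over the 16 libraries, after the mean of each group was taken off the log2 levels. MiR-184-3p was most like miR-966-5p (Pearson r = 0.989) and also most like miR-263a-5p (r = 0.975), with miR-986-5p next for both (r = 0.986 and 0.968). MiR-308-5p (r = 0.959) and miR-1003-3p (r = 0.868) were most like miR-2279-5p, and miR-998-5p (r = 0.969) and miR-2a-1-5p (r = 0.965) most like miR-994-5p. These values share the oxidised 0 h library. Without the 0 h pair (14 libraries) r fell for all of them, and ranks are given among 79 arms. For miR-966-5p, miR-184-3p (r = 0.858) and miR-986-5p (r = 0.812) stayed 1st and 2nd. For miR-2279-5p, miR-308-5p stayed 1st (r = 0.891) and miR-1003-3p was 18th (r = 0.39). For miR-994-5p, miR-998-5p was 4th (r = 0.724) and miR-2a-1-5p 7th (r = 0.704). For miR-263a-5p, miR-184-3p was 2nd (r = 0.728) and miR-986-5p 9th (r = 0.641).

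Whether the amount of the 4 guides changed over the 24 h of labelling was tested within each group. No slope passed the threshold in either group. Without oxidation the log2 slope per unit of log2(1 + h) was −0.01 ± 0.05 for miR-966-5p, 0.04 ± 0.04 for miR-2279-5p, −0.12 ± 0.06 for miR-994-5p and −0.01 ± 0.03 for miR-263a-5p (SE, n = 8; edgeR adjusted p = 0.905, 0.508, 0.221 and 0.888). Of the 126 arms tested 0.794% passed. After oxidation the slopes were −0.60 ± 0.25, 0.15 ± 0.11, −0.52 ± 0.22 and −0.20 ± 0.11 in the same order (edgeR adjusted p = 0.366, 0.64, 0.366 and 0.479).

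Of the 93 oxidised arms 0 passed by edgeR (0%), 12 had an unadjusted p under 0.05 and DESeq2 called 1. The oxidised slopes rested on the 0 h library. Without it they were 0.02 ± 0.06 for miR-966-5p, 0.07 ± 0.07 for miR-2279-5p, −0.01 ± 0.10 for miR-994-5p and −0.01 ± 0.04 for miR-263a-5p (SE, n = 7; edgeR adjusted p = 0.993 for each).

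New molecules were followed by T>C reads as a percentage of all reads over the U positions of an arm, given where at least 1000 reads covered U. MiR-966-5p stood without oxidation at 0.0400% at 0 h and at 0.0371, 0.0923, 0.0648, 0.315, 0.666, 0.545 and 0.828% at 0.25 to 24 h. In the oxidised libraries it stood at 0.0257% at 0 h and at 0.0284, 0.0658, 0.0392, 0.0624, 0.156, 0.137 and 0.423% at the same times. Both series were highest at 24 h and had a lower value at 12 h than at 6 h, within the exact intervals. The 24 h intervals (Clopper-Pearson, 95%) ran from 0.578 to 1.15% without oxidation (35 of 4226 reads over U) and from 0.331 to 0.534% after it (71 of 16773), so they did not overlap.

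MiR-2279-5p stood without oxidation at 0.0363% at 0 h and at 0.0439, 0.0805, 0.0959, 0.315, 0.563, 1.16 and 1.55% at 0.25 to 24 h. After oxidation it stood at 0.0285% at 0 h and at 0.0246, 0.0273, 0.0358, 0.192, 0.429, 0.566 and 1.08%. The unoxidised value was the higher at every time, and the 24 h intervals, 1.37 to 1.74% and 0.973 to 1.19%, did not overlap.

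MiR-263a-5p stood without oxidation at 0.0434% at 0 h and at 0.0733, 0.0817, 0.153, 0.444, 0.878, 1.76 and 3.07% at 0.25 to 24 h. After oxidation it stood at 0.00299% at 0 h and at 0.0331, 0.0104, 0.0264, 0.0820, 0.371, 0.530 and 1.35%. It was the highest of the 3 in both groups at 24 h, and its 24 h intervals, 2.74 to 3.43% and 1.12 to 1.60%, did not overlap. Such a separation, with the oxidised interval the lower, was found for 89.4% of 47 guides, so it is the common pattern.

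MiR-994-5p reached 1000 reads over U only in the untreated library (1169 reads, 0.0855%) and the oxidised 0 h library (8708 reads, 0.0230%), neither of which was labelled. Its other libraries held 386 to 984 such reads, so no rate is given for it over time. In the untreated library the other 3 guides lay at 0.0222% (miR-966-5p), 0.0291% (miR-2279-5p) and 0.0305% (miR-263a-5p).

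**Figure D3:**
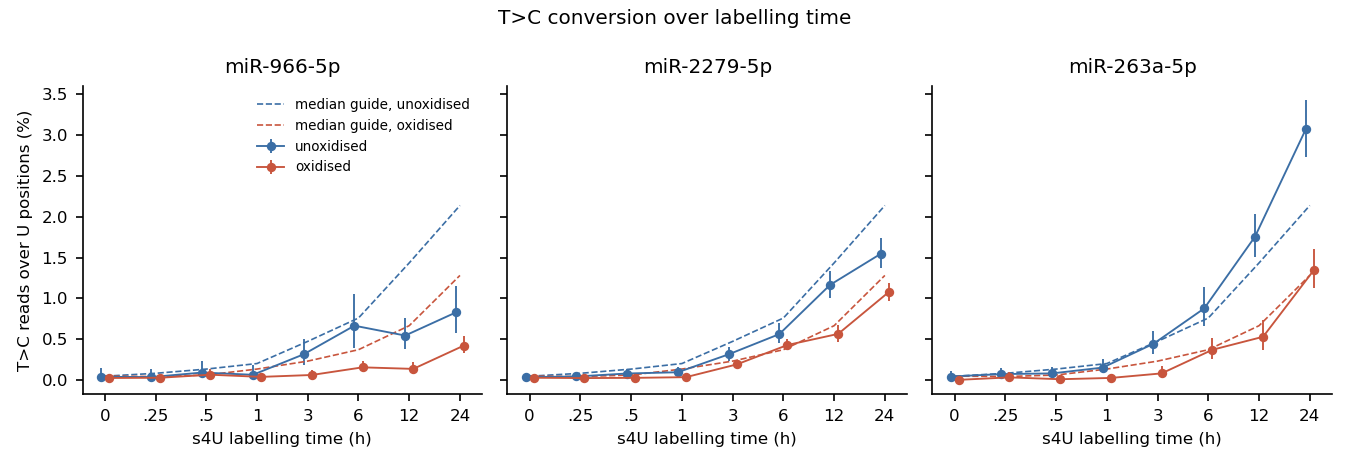
T>C reads as a percentage of reads over U positions against labelling time in h for miR-966-5p, miR-2279-5p and miR-263a-5p, unoxidised in blue and oxidised in red. Points are single libraries with exact 95% intervals. Dashed lines are the median of 47 unoxidised and 41 oxidised guides with at least 1000 reads over U in all 8 libraries. These sets are smaller than the 69 and 42 guides ranked in the text, and their medians differ from those. At 24 h miR-263a-5p (3.07%) lies above the unoxidised median of 2.14% and miR-966-5p (0.828%) below it.

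The T>C percentage of the 3 guides rose with labelling time in both groups. Without oxidation Pearson's r with hours was 0.878 for miR-966-5p (exact permutation p = 0.00273, adjusted p = 0.00353), 0.975 for miR-2279-5p and 0.998 for miR-263a-5p (exact permutation p = 2.48e-05 and adjusted p = 0.000106 for each). After oxidation r was 0.964 (exact permutation p = 0.00315, adjusted p = 0.00403), 0.990 (exact permutation p = 9.92e-05, adjusted p = 0.0002) and 0.992 (exact permutation p = 0.000174, adjusted p = 0.000326).

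Spearman's rho without oxidation was 0.929 for miR-966-5p (exact permutation p = 0.00223, adjusted p = 0.00291) and 1 for miR-2279-5p and miR-263a-5p (exact permutation p = 4.96e-05, adjusted p = 0.000106). After oxidation it was 0.905 for miR-966-5p (exact permutation p = 0.00456, adjusted p = 0.00568) and 0.929 for the other two (exact permutation p = 0.00223, adjusted p = 0.00291). With the 12 h and 24 h libraries left out (these lie farthest from the median labelling time), Pearson's r became 0.992, 0.998 and 0.999 unoxidised and 0.931, 0.991 and 0.954 oxidised, in the order miR-966-5p, miR-2279-5p, miR-263a-5p. Tests were two-sided and adjusted over both coefficients of 112 unoxidised and 72 oxidised arms, of which 78.6% and 95.8% rose by Pearson's r.

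Without oxidation label first exceeded the 0 h library at 1 h or later. One-sided Fisher's exact tests of each labelled library against the 0 h library of its group, adjusted over all arms and times of the group, were passed from 1 h on by miR-2279-5p (0.0959%, adjusted p = 0.0467) and miR-263a-5p (0.153%, adjusted p = 0.0195). MiR-966-5p passed from 3 h on (0.315%, adjusted p = 0.0008). At 0.25 h 66.4% of the unoxidised arms passed, at 0.5 h 73.3%, at 1 h 78.4% and at 3 h 88.8%. From 6 h on 94.6%, 95.7% and 96.5% passed at the 3 times, and the 3 guides with them. These tests compare 2 libraries and cover counting error only, and they count each U of a read apart, which may make them too narrow.

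In the oxidised libraries miR-2279-5p (adjusted p = 1.74e-06) and miR-263a-5p (adjusted p = 0.00018) passed from 3 h on. MiR-966-5p passed at 0.5 h (adjusted p = 0.03), not at 1 h (adjusted p = 0.19), and again from 3 h on (adjusted p = 0.0381), where its 0 h library held 272175 reads over U. With the 0.25 h library as the background, a choice made after the data were seen, miR-966-5p and miR-263a-5p passed from 6 h on. Of the oxidised arms 33.8% passed at 0.5 h, 60% at 1 h and 76.6% at 3 h, then 83.8%, 86.3% and 94.7% at 6, 12 and 24 h, and 14.1% at 0.25 h.

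At 24 h miR-263a-5p carried the 9th highest T>C percentage of 69 unoxidised guides, miR-2279-5p the 49th and miR-966-5p the 65th, around a median of 2.02%. Of 42 oxidised guides they were 17th, 26th and 40th, around a median of 1.26%. After the 0 h value was taken off, the oxidised percentage was 0.504 times the unoxidised one for miR-966-5p, 0.696 times for miR-2279-5p and 0.444 times for miR-263a-5p. The median over 44 guides was 0.507 times, so the 3 guides lay on both sides of it.

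The share of the 24 h label already present at 3 h varied among them as a point value, with no interval. Without oxidation it was 34.9% for miR-966-5p, 18.5% for miR-2279-5p and 13.3% for miR-263a-5p, against 20.03% for the median guide. After oxidation it was 9.24%, 15.5% and 5.88%, against 15.6%. Each share rests on 3 libraries and has no replicate check. The T>C reads at 3 h were 17, 57 and 41 without oxidation and 8, 78 and 7 after it, in the same order.

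At single U positions the label of miR-263a-5p was unevenly lowered. At 24 h nucleotide 3, counted from the 5′ end, had T>C in 4.00% of reads without oxidation (98 of 2452) and 2.33% after it (54 of 2321). Nucleotide 17 had 3.55% and 1.94%, and nucleotide 18 had 2.32% and 0.948%. Nucleotide 9, just after the seed, had 2.41% (59 of 2452, exact interval 1.84 to 3.09%) and 0.172% (4 of 2321, exact interval 0.0470 to 0.441%).

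The ratio of oxidised to unoxidised was thus 0.0716 at nucleotide 9 and 0.408 to 0.582 at the other 3 U. It was the 4th lowest of 267 U positions of the guides, whose median was 0.524, and over 18 guides with a U at nucleotide 9 the median was 0.514. The same position was the lowest U after oxidation at 12 h (2 of 1603 reads, 0.125%, against 26 of 2405, 1.08%). It was also the lowest after oxidation at 6 h (2 of 2292, 0.0873%, against 12 of 1534, 0.782%). At 12 h, however, nucleotide 9 was the lowest U without oxidation too. Nucleotide 18 went from 2.00% to 0.312% at 12 h, so a strong lowering was not confined to nucleotide 9 there.

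In miR-2279-5p the lowest ratio was at its last base, nucleotide 22. T>C stood there at 1.18% (17 T>C reads, exact interval 0.689 to 1.88%) without oxidation and 0.0625% (2 T>C reads, exact interval 0.00758 to 0.226%) after it, a ratio of 0.053 and the lowest of the 267. At nucleotides 2 and 6 the percentages were near each other, with 3.22% and 3.38% at nucleotide 2 and 0.874% and 0.982% at nucleotide 6, and overlapping intervals. Over 14 guides with a U at nucleotide 22 the median ratio was 0.244, below the 0.524 of all positions.

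For miR-966-5p, at 6, 12 and 24 h, only the oxidised libraries reached 1000 reads at single positions. At 24 h its T>C percentage ran from 0 of 2015 reads at nucleotide 10 (exact upper limit 0.183%) to 0.943% at nucleotide 1 and 0.844% at nucleotide 15.

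**Figure D4:**
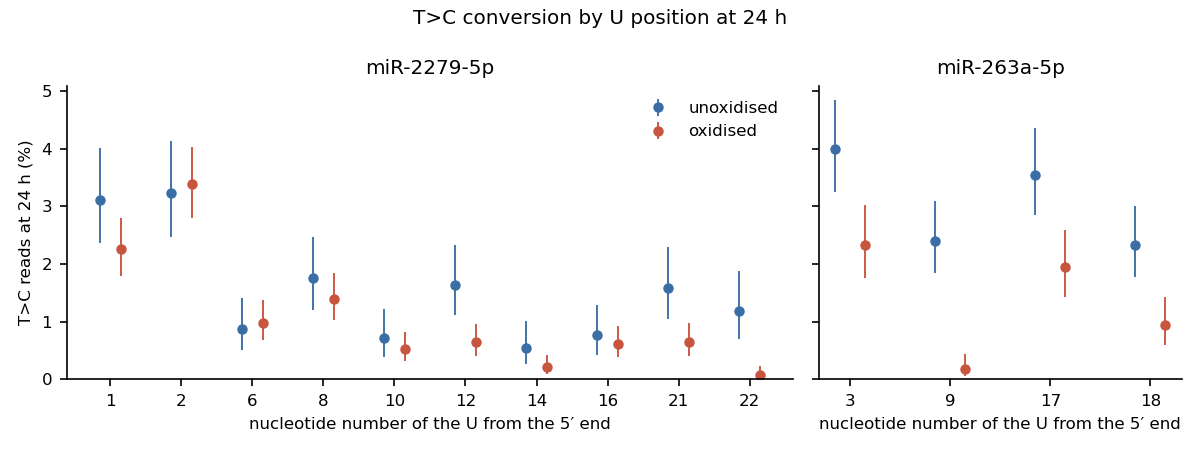
T>C reads at 24 h as a percentage of the reads at each U position, numbered from the 5′ end, in miR-2279-5p and miR-263a-5p (unoxidised blue, oxidised red, 1 library each, bars are exact 95% intervals). The oxidised value falls to 0.0625% at nucleotide 22 of miR-2279-5p and to 0.172% at nucleotide 9 of miR-263a-5p.

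Read lengths set the guides apart from each other. MiR-263a-5p was most often 24 nt long, in 61.7% ± 3.55 of its reads without oxidation and 82.7% ± 3.01 after it (SD, n = 8). The unoxidised libraries ranged from 55.2 to 66.5% and the oxidised ones from 80.0 to 89.6%, so the groups did not overlap. Shorter forms were fewer after oxidation, as 22 nt reads went from 8.77% ± 1.71 to 1.95% ± 0.659 and 23 nt reads from 17.8% ± 1.44 to 12.1% ± 1.99.

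MiR-2279-5p was most often 22 nt long, in 81.0% ± 2.02 of its reads (78.1 to 83.2%) without oxidation and 92.4% ± 1.18 (90.4 to 93.9%) after it, again with no overlap. Of the 80 arms 17.5% had every oxidised library above every unoxidised one in the share at the most frequent length, and 37.5% had every one below. At that length the share of the median guide fell by 9.37 percentage points, whereas that of miR-263a-5p was 20.99 points and that of miR-2279-5p 11.4 points higher.

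MiR-994-5p had 72.6% ± 5.02 of its reads at 22 nt without oxidation and 66.6% ± 7.15 after it, with overlapping ranges. MiR-966-5p had no single main length. Without oxidation 28.04% ± 2.19 of its reads had 21 nt and 25.1% ± 2.20 had 23 nt, and after oxidation 23.9% ± 2.73 and 23.1% ± 4.08, with overlap at both lengths.

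**Figure D5:**
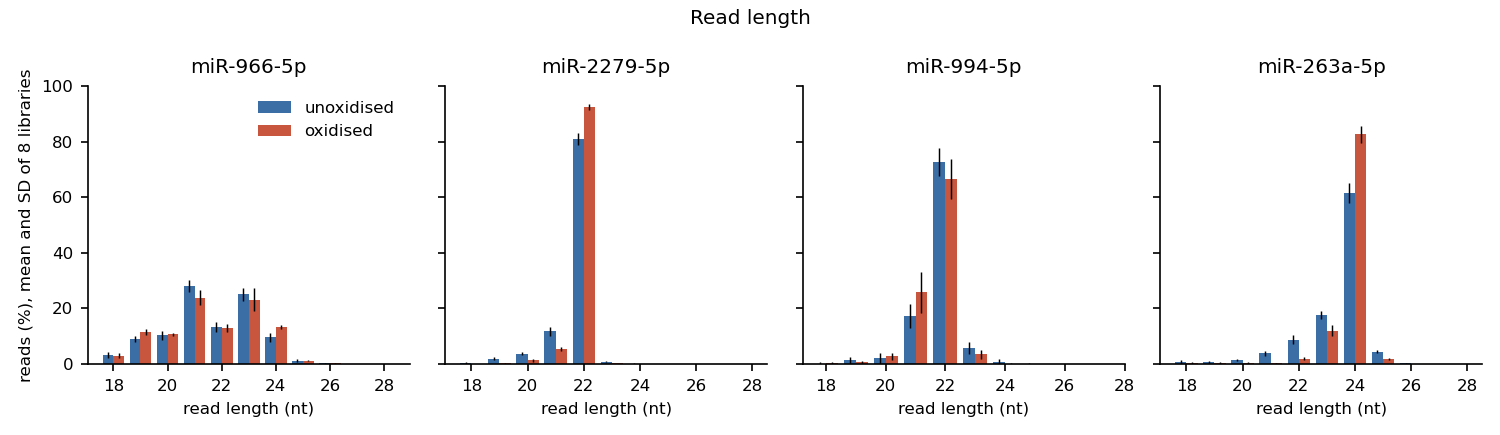
Share of reads in % at each read length in nt for the 4 guides, as the mean of 8 unoxidised (blue) and 8 oxidised (red) libraries with SD bars. The main peak is higher after oxidation in miR-263a-5p (24 nt, 82.7% against 61.7%) and miR-2279-5p (22 nt, 92.4% against 81.0%), and miR-966-5p has peaks at 21 and 23 nt.

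In miR-966-5p, miR-263a-5p and miR-2279-5p reads that ran on past the main lengths mostly differed from the hairpin at the first base beyond them. In miR-966-5p nucleotide 24 is G in the hairpin but was T in 88.2% of 518 unoxidised reads and 95.6% of 6747 oxidised reads that reached it. In miR-263a-5p nucleotide 25 is also G, and was another base in 98.1% of 874 unoxidised and 98.0% of 453 oxidised reads, with T in 60.3% and 82.1%. One base earlier, at nucleotide 24 of miR-263a-5p, 0.642% and 0.129% differed. In miR-966-5p nucleotide 25 differed in 13.9% of 72 unoxidised and 5.21% of 653 oxidised reads. The hairpin has U there, so an added T cannot be told from the hairpin base. At nucleotide 26 of miR-966-5p, again G, 88.2% of 17 unoxidised and 100% of 107 oxidised reads differed. Nucleotide 26 of miR-263a-5p, a U, differed in 57.6% of 66 unoxidised and 4.35% of 23 oxidised reads. In miR-2279-5p nucleotide 23 is A in the hairpin. It differed in 58.4% of 154 unoxidised and 68.7% of 83 oxidised reads, with T in 40.9% and 37.35%. In miR-994-5p nucleotide 23, a U, differed in 30.9% of 68 and 17.6% of 85, and an added T is not seen there.

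Labelled reads of miR-263a-5p were more often of the full 24 nt than its reads as a whole. At 12 h without oxidation 85.0% of its 147 T>C reads had 24 nt, against 60.2% of 2405 reads, and at 24 h 71.3% of 279 T>C reads, against 62.5% of 2452. In the oxidised library at 24 h the shares were 90.4% of T>C reads and 82.1% of 2321 reads. For miR-2279-5p the 22 nt shares at 24 h were 83.2% of 202 T>C reads against 78.1% of 1830 reads without oxidation, and 95.9% of 314 against 92.0% of 3461 after it. MiR-966-5p went the other way at 24 h, with 11.5% of 26 T>C reads at 21 nt against 28.01% of 507 reads without oxidation, and 20.8% of 53 against 27.4% of 2015 after it. At 12 h without oxidation its share was the higher in T>C reads, at 42.9% of 28 against 29.2% of 790 reads. MiR-2279-5p has U at nucleotides 21 and 22 and miR-966-5p at 19 and 23, so their longer reads hold more U at which T>C can be scored. The part of this in the shares was not tested.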

How the data were processed

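Small RNA of 18 to 30 nt from S2 cells was sequenced in 17 libraries. The submitters' processing notes name the build dm6 and the tools Bowtie 1.2.2, Picard and cutadapt 1.7.1. Which settings were used is not given in the sources used here. Values in the authors' mismatch and library tables are counts of reads. Values for positions and lengths were deposited as a signal in RPM, reads scaled by the authors to the library's small RNA reads, and 100% of them gave whole reads when multiplied by the library total (tolerance 0.001).

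The members and lists were chosen with earlier results of these data known. Of arms with the same first 22 bases 1 copy was kept. The tests of abundance used R 4.3.3 with edgeR 4.0.16 (filterByExpr, TMM, quasi-likelihood), and DESeq2 1.42.0 as an alternative. Labelling time was the block for oxidation, since per the labels each RNA was split. T>C was tested by exact permutation and Fisher's exact tests in Python 3.11.15 with scipy 1.17.1, figures used matplotlib 3.10.9, and all p-values were Benjamini-Hochberg adjusted over all arms. Hairpins were folded with ViennaRNA 2.7.2. Scripts were tested on simulated data.

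Named arms were the 4 guides, their other arms, the 2 most like arms (log2 of TMM-scaled counts plus 0.5), the neighbours in the fold-change order, arms of the same seed, the most abundant guide and marker arms. Intervals and Fisher tests cover counting error only. Alternatives varied the scale, filter, tool, counts, block, U positions, coverage minimum, background and libraries.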

Additional observations from a re-analysis of the deposited data

Results flagged for a closer look

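In each of the 4 guides the level of the oxidised library at 0 h was separated from those of the other times by more than Dixon's 95% critical value for 8 samples. It was the highest for miR-966-5p (765 RPM, the others 63.5 to 103 RPM), miR-994-5p (43.1 RPM, the others 4.30 to 10.1 RPM) and miR-263a-5p (197 RPM, the others 80.1 to 124 RPM). It was the lowest for miR-2279-5p (33.2 RPM, the others 109 to 171 RPM). Chance flags about 1 in 20 groups. The 4 values come from 1 library and are not separate events.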

How the results depend on the processing

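The 4 log2 fold changes on oxidation stayed positive under every alternative run, on the contrast for which the guides were chosen. No alternative joined the small RNA scale with leaving out the 0 h pair. Without the 0 h libraries miR-263a-5p had a mean of 97.2 RPM oxidised and 98.8 RPM unoxidised. The size of the 4 values followed the scale. Relative to all small RNA reads 8 of 80 arms were higher in place of 35. With whole reads of 186 arm starts taken from the tables of positions the number was 69, where miR-2279-5p stood at 1.62 and miR-263a-5p at 1.11. With no replicate block 36 arms were higher, and miR-966-5p stood at 5.29, miR-2279-5p at 2.88, miR-994-5p at 3.46 and miR-263a-5p at 2.48. The block is the labelling time at which each RNA was split.

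The number of unoxidised arms with a slope over time was 1, but 14 with DESeq2, 5 on the small RNA scale, 8 on hours, and 0 to 13 with 1 library left out, and DESeq2 called 1 oxidised arm in place of 0. No slope of the 4 guides passed under these. With 1 library left out, the unoxidised slope ran from −0.086 to 0.042 for miR-966-5p (above 0 without the 6 h or the 24 h library) and from −0.025 to 0.0027 for miR-263a-5p (above 0 without the 0.5 h library), which was 0.0012 on hours. The oxidised slope of miR-966-5p ran from −0.78 to 0.016 and was above 0 without the 0 h library. The T>C trends of the 3 guides passed under all alternatives. MiR-994-5p, with 200 reads over U as the minimum, exceeded 0 h at 2 of 7 unoxidised and 1 of 7 oxidised times. The oxidised time was 6 h, with 3 T>C reads of 882 over U. It did not pass at 12 h (1 of 390) or 24 h (2 of 758). At the minimum of 1000 reads 83.8% of oxidised arms passed at 6 h. Label first exceeded the background at 0.5 h in place of 1 h for miR-2279-5p against the untreated library, and at 0.25 h in place of 3 h for oxidised miR-263a-5p over U up to nucleotide 18. Over all U that 0.25 h library held 3 T>C reads of 9064 (Fisher's exact test, adjusted p = 0.0509). Up to nucleotide 18 only 5 of 7 times passed, so not every time after 0.25 h did.

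The depth of miR-994-5p and the single library per time limit these values, and the oxidised 0 h library sets the means of miR-966-5p and miR-994-5p.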
